A study of Homo sapiens with 6 samples.

Results

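Desmosome genes were followed in 3 CD109-KO clones of A431 (26, 32 and 180) and in 3 parental samples of the line (5, 2 and 6). They were chosen by symbol as the desmogleins DSG1, DSG2 and DSG3, the desmocollins DSC2 and DSC3, desmoplakin (DSP), the plakophilins PKP1, PKP2 and PKP3, and PERP. All 10 were measured, each by 1 probe set of the Affymetrix Clariom S human array, among 17687 named genes. A431 is an established human squamous carcinoma line, and CD109 encodes a GPI-anchored surface protein that binds TGF-β. The comparison addresses what changes in gene expression when CD109 is lost. Each clone grew from a single cell sorted as CD109 negative after CRISPR/Cas9 with guide RNAs against exon 1 or exon 2, so that every knockout value belongs to 1 clone. Parental cells carry unedited CD109, and the sources do not describe single-cell sorting for them. Loss of CD109, the cloning and the array-wide differences given below all divide the arrays alike and cannot be told apart here. All cells grew in complete medium with no further treatment.

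Desmosomes are spot-like junctions that tie the keratin filaments of neighbouring epithelial cells together. Desmogleins and desmocollins are cadherins that span the membrane and bind partners on the next cell. Inside the cell, plakoglobin (JUP) and the plakophilins, which are armadillo proteins, hold the cadherin tails, and desmoplakin joins this plaque to the filaments. DSG2, DSC2, PKP2, DSP and JUP serve most tissues with desmosomes, the heart included, while DSG1, DSG3, DSC1, DSC3 and PKP1 belong chiefly to stratified epithelia such as epidermis.

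Of the 10 desmosome genes, 8 were lower in CD109-KO cells and none was higher, while DSG1 and PKP3 did not pass the test. A gene was called where limma gave an adjusted p under 0.01 and the fold change was at least 2. By this call 26.8% of all genes were lower and 36.2% were higher. The median log2 difference, CD109-KO minus parental, was -3.31 over the desmosome genes and 0.51 over all genes. For the same 8 genes every knockout value lay below every parental value, as for 31.8% of all genes, and no desmosome gene showed the opposite order, which 48.9% of all genes did. DSG2, DSG3 and DSC2 were above background in all parental arrays and in no knockout array. That held for 18.3% of all genes, and for 28.5% of the 11369 genes above background in all 3 parental arrays. Among those 11369 genes, which include 9 of the desmosome genes, 40.5% were lower, and picking genes by a bright parental signal itself favours falls.

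The arrays differed in more than these genes. Signals are on the log2 scale as deposited, and an array's background is the level under which 95% of its 348 olfactory receptor probe sets lay. Its mean was 5.59 over CD109-KO arrays and 4.14 over parental arrays. The interquartile range of gene probe sets was 2.44 to 2.49 in CD109-KO and 3.25 to 3.51 in parental arrays. In CD109-KO arrays 7838 to 8674 genes were above background, against 12105 to 12297 in parental arrays. CD109 itself read 3.64, 3.45 and 3.62 in clones 26, 32 and 180, against 7.57, 7.75 and 8.13 in the parental samples, although where its probes lie relative to exons 1 and 2 is not known here. All 5 measured keratinocyte markers were above background in every parental array and were lower in the clones. The log2 of their summed signal was 9.70 to 9.85 in CD109-KO and 13.43 to 13.71 in parental arrays, and ITGA6 was under background in all clones. Of 7 fibroblast markers 6 were higher and LUM was lower, with a summed signal of 11.92 to 12.16 in CD109-KO and 8.03 to 8.20 in parental arrays. Higher were also 3 of 5 melanocyte markers (summed signal 8.41 to 8.53 in CD109-KO and 7.30 to 7.47 in parental arrays), 4 of 6 endothelial markers (8.34 to 8.44 in CD109-KO and 7.01 to 7.07 in parental arrays) and 5 of 5 cardiomyocyte markers (8.82 to 9.02 in CD109-KO and 6.997 to 7.21 in parental arrays). Of 5 blood cell markers 3 were higher and CD68 was lower (7.88 to 7.998 in CD109-KO and 9.56 to 10.21 in parental arrays). Of all genes 36.2% were higher by the same call. PDGFRA (fibroblast), TYR (melanocyte), PECAM1, KDR and TEK (endothelium), PTPRC (leukocyte) and MYH6 (cardiomyocyte) were under background in all 6 arrays. After centring on antigenomic controls 6.32% of all genes were higher. So were 4 fibroblast, 2 cardiomyocyte and 1 endothelial marker, and none of the melanocyte or blood cell markers. All 5 keratinocyte markers were lower under every scaling tried. Of 36 genes that every human cell needs, 21 were lower and 1 was higher. These 36 and the 5 keratinocyte markers were above background in every parental array, and 40.5% of such genes were lower. The part of these shifts in the desmosome results was not tested. In bulk RNA, fewer cells that express a gene and less of its RNA per cell cannot be told apart.

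**Figure D1:**
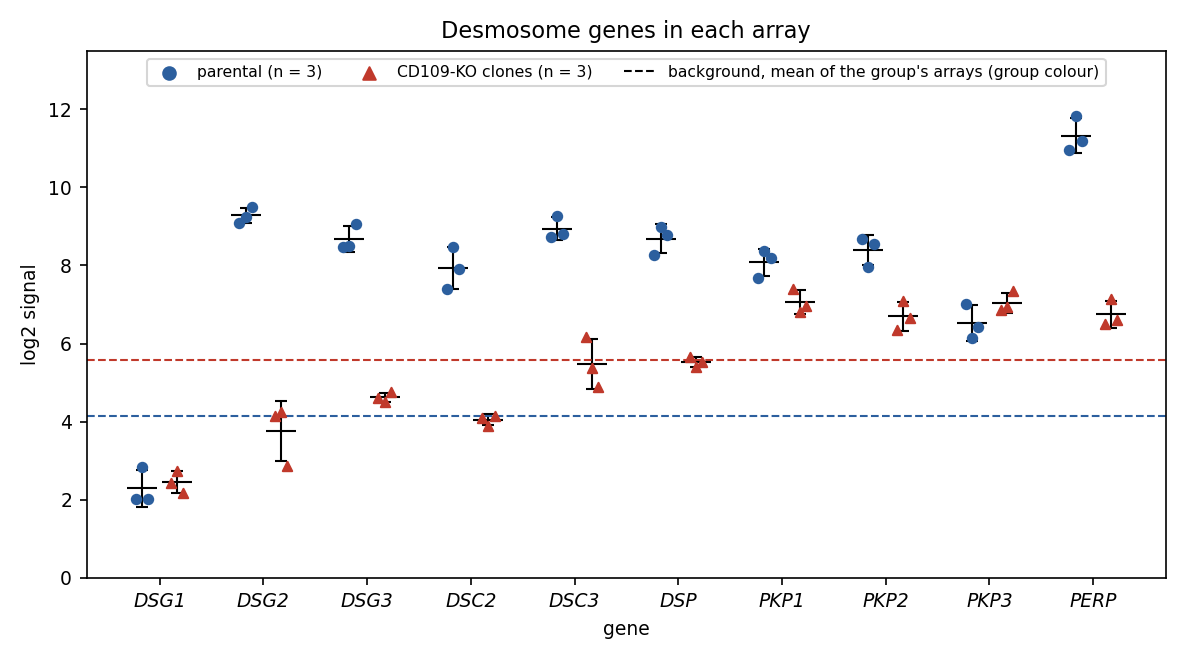
Log2 signal of the 10 desmosome genes in each array (vertical axis), by gene, for 3 parental samples and 3 CD109-KO clones, with the mean and SD of each group and the mean background of each group (5.59 in CD109-KO and 4.14 in parental arrays). The groups are apart for 8 genes and overlap for DSG1 and PKP3.

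DSG2, the desmoglein found in nearly all desmosomes, fell from a bright signal to one under background. It occupies chromosome 18 of GRCh38.p14 from 31498177 to 31549008. Clones 26, 32 and 180 gave log2 signals of 4.16, 4.25 and 2.87, against 9.10, 9.25 and 9.49 in parental samples 5, 2 and 6. All clones were under background and all parental samples far above it, and clone 180 was the lowest. In limma the difference was -5.52 (SE 0.34) with an adjusted p of 2.22e-07. Because no clone rose above background, a bound was taken that counts each clone at the higher of its background and its own value. By this bound DSG2 was at least 12.9-fold lower. All such bounds hold for the values as deposited and not under every other scaling.

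DSG3, the desmoglein of basal keratinocytes and the main antigen of pemphigus vulgaris, occupies chromosome 18 from 31447741 to 31478702. Signals of 4.61, 4.51 and 4.75 were read in clones 26, 32 and 180, and of 8.46, 8.51 and 9.07 in parental samples 5, 2 and 6. The clones were again all under background and close to one another. The limma difference of -4.06 (SE 0.24) had an adjusted p of 1.63e-07, and it was at least 8.54-fold lower.

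DSG1, the desmoglein of the upper epidermis and the antigen of pemphigus foliaceus, occupies chromosome 18 from 31318160 to 31359246. In clones 26, 32 and 180 it read 2.42, 2.74 and 2.17, and in parental samples 5, 2 and 6 it read 2.02, 2.83 and 2.01. All 6 values were under background and the groups overlapped. The difference of 0.16 (95% interval -0.46 to 0.77, limma adjusted p = 0.619) therefore compares arrays that had no signal above background.

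The promoters of DSG1 and DSG3 are shown because they share the longest run of bases among the cadherin genes, although DSG1 was under background in every array and DSG3 was bright in parental arrays. That run is 20 bases long, against 7 to 9 for the other 14 pairs among 6 cadherin genes with a RefSeq promoter. Runs were sought from 250 bases before to 50 after the start site. Only the first promoter of each gene was used, so the second DSC2 promoter was not compared. DSG1 and DSG3 are given over the 250 bases before the start site, 5′ to 3′ on the plus strand of GRCh38.p14. Runs of at least 10 bases found in both are in capitals. DSG1 is chr18:31317910-31318159 and DSG3 is chr18:31447491-31447740.
DSG1: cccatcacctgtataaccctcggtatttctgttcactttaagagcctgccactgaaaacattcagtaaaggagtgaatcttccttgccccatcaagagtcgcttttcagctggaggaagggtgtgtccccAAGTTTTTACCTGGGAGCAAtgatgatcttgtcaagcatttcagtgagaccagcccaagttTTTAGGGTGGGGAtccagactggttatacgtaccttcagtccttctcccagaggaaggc
DSG3: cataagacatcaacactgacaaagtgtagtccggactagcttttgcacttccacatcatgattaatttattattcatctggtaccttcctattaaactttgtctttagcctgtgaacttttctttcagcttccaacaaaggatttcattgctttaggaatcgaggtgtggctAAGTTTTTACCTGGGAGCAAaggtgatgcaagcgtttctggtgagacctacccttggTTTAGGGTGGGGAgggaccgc
Each window holds 2 such runs with 33 bases in all, and the 20-base run starts at -120 from the start site in DSG1 and at -78 in DSG3.

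DSC2, the most widely made desmocollin, occupies chromosome 18 from 31058840 to 31102421. Its signals were 4.09, 3.89 and 4.16 in clones 26, 32 and 180, whereas parental samples 5, 2 and 6 had 7.41, 8.47 and 7.90. No clone was above background and every parental sample was. With an SE of 0.28, limma gave -3.88 and an adjusted p of 5.99e-07, a fall of at least 5.06-fold.

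DSC3, the desmocollin of basal epidermis, occupies the same chromosome from 30989365 to 31042742. Readings of 6.17, 5.38 and 4.88 came from clones 26, 32 and 180, and of 8.73, 9.27 and 8.82 from parental samples 5, 2 and 6. Clone 26 was above background and the other clones were not. DSC3 differed by -3.46 (SE 0.32; limma, adjusted p = 3.65e-06).

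DSP, the plakin that links the plaque to keratin filaments, occupies chromosome 6 from 7541671 to 7586714. It measured 5.64, 5.39 and 5.53 in clones 26, 32 and 180, against 8.27, 8.99 and 8.79 in parental samples 5, 2 and 6. Clone 26 was just above its background and the other clones were below theirs. The difference by limma was -3.16 (SE 0.25), at an adjusted p of 1.02e-06.

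PERP, a tetraspan membrane protein of desmosomes and a target gene of p53 and p63, occupies chromosome 6 from 138088505 to 138107419. Clones 26, 32 and 180 read 6.50, 7.14 and 6.61, and parental samples 5, 2 and 6 read 10.96, 11.82 and 11.18. All 6 values were above background, so that both sides of this fall were measured. PERP was 23.7-fold lower, a limma difference of -4.57 (SE 0.28, adjusted p = 2.16e-07).

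RefSeq promoters of GRCh38.p14, from 250 bases before to 50 after the start site, were found for 8 of the 10 genes and searched on both strands. CACCTG on either strand, an E-box that SNAI and ZEB repressors bind, was in 4 of the 8 (DSG1, DSG2, DSC2 and DSP) and in 20.6% of 35116 promoters. GGGCGG on either strand, the GC box, was in 5 of the 8 (DSG2, DSC2, DSP, PKP1 and PERP) and in 45.0% of promoters. A gene counts here if any of its promoters matches, while the percentages count single promoters. The GC content was 60.7% to 77.0% in the promoters of these 5 genes, 63.3% in DSC3, 45.7% in DSG1 and 44.0% in DSG3. Its median over all promoters was 58.7%. AACNNGTT, letters that Grainyhead-like factors bind, was in none of the 8 and in 3.52% of promoters. DSG2, DSC2 and DSP are shown because they hold CACCTG and fell, over the 250 bases before the start site, 5′ to 3′, with CACCTG and GGGCGG of either strand in capitals. DSG2 is chr18:31497927-31498176 on the plus strand, DSC2 (the first of 2 promoters listed) is chr18:31102422-31102671 on the minus strand, and DSP is chr6:7541421-7541670 on the plus strand.
DSG2: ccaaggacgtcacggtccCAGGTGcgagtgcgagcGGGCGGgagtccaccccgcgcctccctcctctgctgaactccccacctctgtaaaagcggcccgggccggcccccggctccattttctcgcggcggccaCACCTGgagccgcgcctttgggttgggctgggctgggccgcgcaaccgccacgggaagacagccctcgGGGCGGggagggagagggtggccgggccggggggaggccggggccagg
DSC2: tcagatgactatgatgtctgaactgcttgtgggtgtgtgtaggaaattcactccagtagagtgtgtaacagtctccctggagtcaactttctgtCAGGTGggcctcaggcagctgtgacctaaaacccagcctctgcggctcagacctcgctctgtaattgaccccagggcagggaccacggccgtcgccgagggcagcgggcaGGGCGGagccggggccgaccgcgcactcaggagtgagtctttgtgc
DSP: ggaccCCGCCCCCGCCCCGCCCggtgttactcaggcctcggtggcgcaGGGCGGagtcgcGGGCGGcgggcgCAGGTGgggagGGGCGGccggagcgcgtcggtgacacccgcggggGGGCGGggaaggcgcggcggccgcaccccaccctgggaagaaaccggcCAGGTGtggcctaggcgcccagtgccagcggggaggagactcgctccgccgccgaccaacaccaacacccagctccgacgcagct
CACCTG starts at -232 and -116 in DSG2, at -156 in DSC2 and at -178 and -85 in DSP. DSG3 and DSC3, which also fell, hold none of the 3 motifs in this window. PKP1 and PERP were lower too and hold no CACCTG, nor does the second DSC2 promoter. DSG1 holds CACCTG but was under background in every array. These matches describe letters, and binding was not measured here.

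Plakophilins gather desmoplakin at the plaque, and all 3 were above background in all 6 arrays. PKP2, the plakophilin of simple epithelia and heart, occupies chromosome 12 from 32790755 to 32896777. Its readings were 6.34, 7.08 and 6.67 in clones 26, 32 and 180, and in parental samples 5, 2 and 6 they were 8.69, 7.97 and 8.56. The groups did not overlap. Its limma difference was -1.71 (SE 0.28), and the adjusted p was 0.000174.

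PKP1, the plakophilin of the upper epidermis, occupies chromosome 1 from 201283506 to 201332989. Values of 7.41, 6.82 and 6.97 were found in clones 26, 32 and 180, and of 7.69, 8.37 and 8.18 in parental samples 5, 2 and 6. Clone 26 came close to parental sample 5 without reaching it. A limma difference of -1.02 (SE 0.26, adjusted p = 0.00399) only just met a fold change of 2. It did not pass without clone 32 (-0.89), clone 180 (-0.97), parental sample 2 (-0.87) or parental sample 6 (-0.96).

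PKP3, made in most epithelia, occupies chromosome 11 from 392596 to 404908. Clones 26, 32 and 180 showed 6.87, 6.93 and 7.34, and parental samples 5, 2 and 6 showed 7.02, 6.14 and 6.42. Parental sample 5 lay among the clones. The difference was 0.52 (95% interval -0.08 to 1.12), with an adjusted p of 0.0986 in limma. Differences between the changes of the 10 genes were not tested.

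The sizes of these changes depended on how the arrays were scaled. Centring shifts all values of an array alike and leaves the narrower range of the CD109-KO arrays as it was. DSG2, DSG3, DSC2, DSC3, DSP and PERP were lower by the same call under a repeated quantile normalization and after each array was centred on the every-cell genes, on antigenomic background controls or on hybridization controls. Their smallest falls came from the every-cell genes, where the log2 difference was -3.70 for DSG2, -2.74 for PERP, -2.24 for DSG3, -2.06 for DSC2, -1.64 for DSC3 and -1.34 for DSP, while the median of all genes was 2.33. Under that centring PKP1 (0.81) and PKP2 (0.11) were not lower, and PKP3 (2.35) and DSG1 (1.98) were called higher. PKP3 was -0.46 on antigenomic and -0.32 on hybridization controls and passed on neither.

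**Figure D2:**
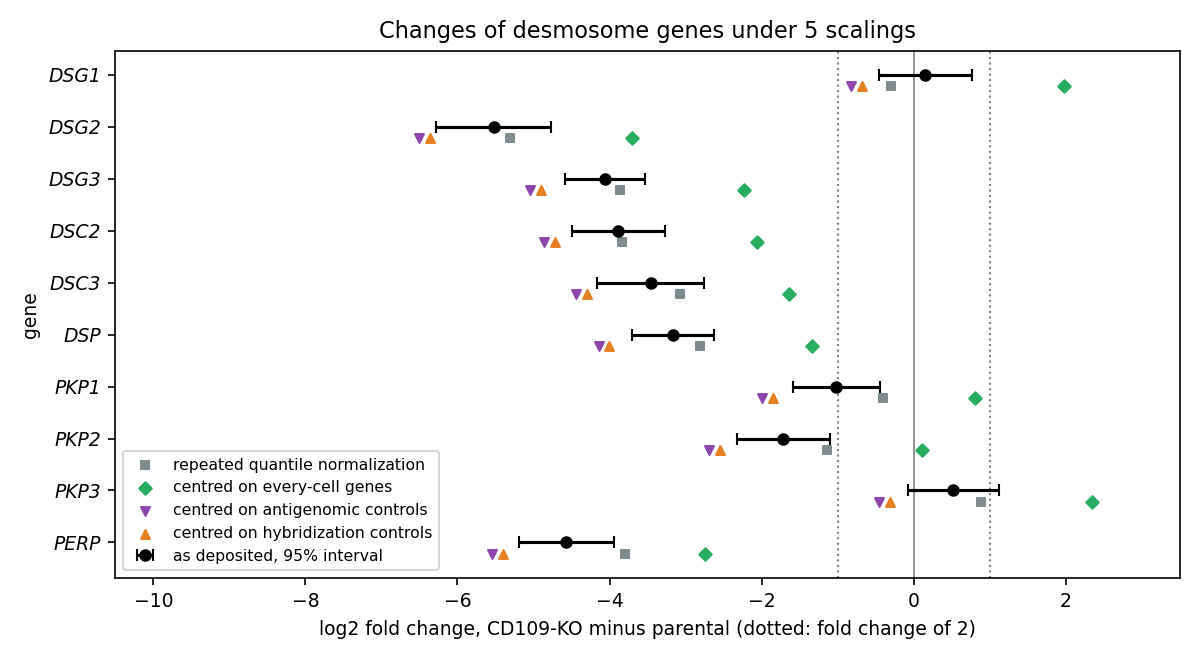
Log2 difference of each desmosome gene (horizontal axis, CD109-KO minus parental) with its 95% interval for the deposited values, beside the values under 4 other scalings; dotted lines mark a fold change of 2. DSG2, DSG3, DSC2, DSC3, DSP and PERP are lower under all 5 scalings, whereas PKP1 and PKP2 turn positive after centring on every-cell genes and DSG1 and PKP3 change sign between scalings.

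The desmosomal cadherin genes form a cluster of 7 over 559.6 kb of chromosome 18, in the order DSC3, DSC2, DSC1, DSG1, DSG4, DSG3 and DSG2. DSC3 and DSC2 at one end and DSG3 and DSG2 at the other were bright in parental arrays and fell. DSC1, DSG1 and DSG4, which lie between them and belong to the upper epidermis or hair, were under background in all 6 arrays. DSC1 ranged from 2.83 to 3.70 in the clones and from 2.65 to 3.21 in parental samples. DSG4 ranged from 3.90 to 4.22 and from 2.69 to 2.82, a difference of 1.29 that passed in limma (adjusted p = 0.000219) and gets no fold because no array was above background. It did not pass after a repeated quantile normalization (0.72) or centring on antigenomic (0.31) or hybridization controls (0.45).

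Within 1 Mb of the cluster 7 other genes were measured, all on the DSG2 side, and they are named after their values were seen. TRAPPC8, a subunit of a vesicle tethering complex, was under background in all clones and at least 1.74-fold lower, and GAREM1, an adaptor of growth factor signalling, was also under background there and at least 2.03-fold lower. Both passed the call, with log2 differences of -2.34 and -1.38, but not after centring on every-cell genes (-0.52 and 0.45). TTR, which encodes the plasma carrier transthyretin, was under background in all parental samples and at least 3.1-fold higher, but did not pass after centring on antigenomic (0.81) or hybridization controls (0.96). Clones 26, 32 and 180 read 5.76, 5.70 and 5.86 for TTR, only just above their own backgrounds of 5.54, 5.51 and 5.71. B4GALT6, SLC25A52, RNF138 and MEP1B did not pass.

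**Figure D3:**
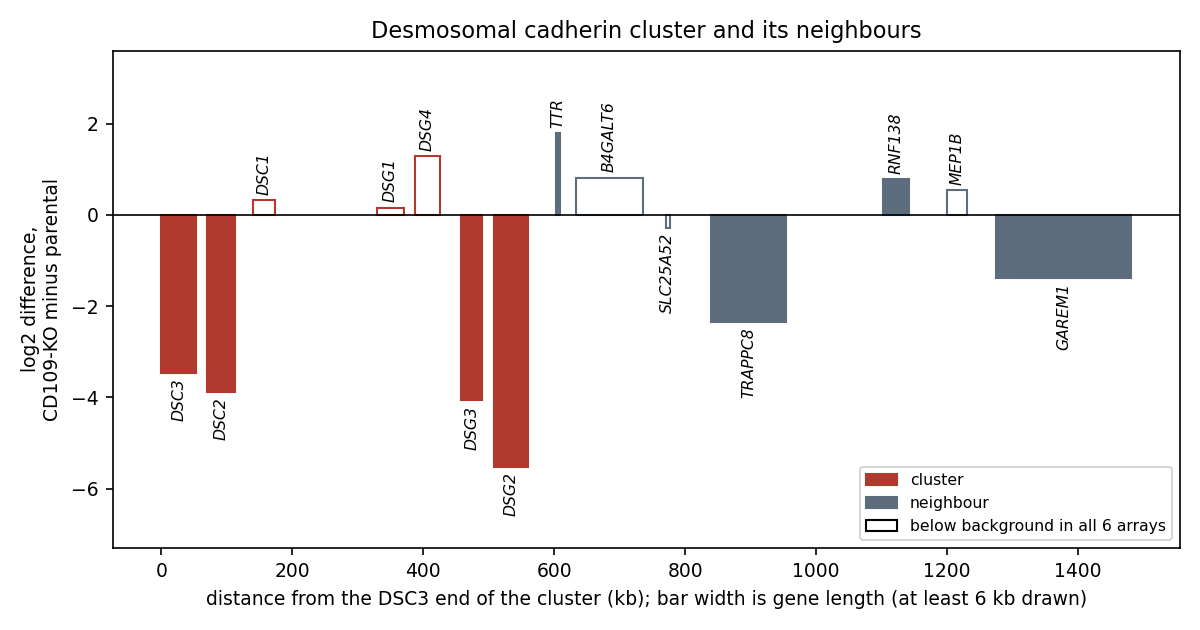
Log2 difference between CD109-KO and parental arrays (vertical axis) for the 7 genes of the desmosomal cadherin cluster and 7 neighbours, by distance from the DSC3 end of the cluster in kb. DSC3 (-3.46), DSC2 (-3.88), DSG3 (-4.06) and DSG2 (-5.52) lie at the ends of the cluster, and the 3 genes between them were under background in all 6 arrays.

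Of 4 other desmosome components measured, JUP was lower, DSG4 higher as given above, and DSC1 and PKP4 did not pass. JUP, on chromosome 17 from 41754609 to 41786711, had signals of 6.68, 6.82 and 6.72 in clones 26, 32 and 180 beside 10.45, 10.56 and 10.52 in parental samples 5, 2 and 6. All 6 values were above background and the groups lay far apart. Its limma difference was -3.77 (SE 0.21, adjusted p = 1.15e-07), and -1.95 after centring on every-cell genes. PKP4, an armadillo protein of cell junctions, differed by -0.09 (limma, adjusted p = 0.733), but was called higher after centring on every-cell genes (1.73) and lower on antigenomic controls (-1.07). DSC1 was called higher on every-cell genes (2.15), still under background in each array as deposited.

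Of 10 measured keratins, the filament proteins that desmosomes anchor, 8 were lower and KRT1 and KRT7 did not pass. All 10 were above background in every parental array, where 40.5% of such genes were lower. KRT5 of basal keratinocytes, above background in all 6 arrays, was 13-fold lower. KRT18 of simple epithelia and KRT10 of the upper epidermis were under background in all clones, and were at least 12.1-fold and at least 7.74-fold lower. KRT13, above background in 1 clone, had a log2 difference of -4.94. These 4 were lower under all 5 scalings, with log2 differences after centring on every-cell genes of -1.88, -2.21, -2.64 and -3.11 for KRT5, KRT18, KRT10 and KRT13. Under that centring 5 keratins were lower and none was higher, beside 9.52% and 70.1% of all genes. On antigenomic and hybridization controls all 10 were lower, beside 38.4% and 34.3% of all genes. Of 5 plakins and filament linkers, DST, which anchors keratin at hemidesmosomes, was at least 12.2-fold lower, with a log2 difference of -2.19 after centring on every-cell genes. PPL (periplakin, under background in all clones and at least 3.8-fold lower) and PLEC (plectin, -1.26) were lower, though neither after that centring (-0.74 and 0.57). MACF1, a linker of actin and microtubules, was higher by 1.40, but not on antigenomic (0.42) or hybridization controls (0.56), and EVPL (envoplakin, 0.53) did not pass except on every-cell genes, where it was higher (2.36).

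All 9 adherens junction genes were above background in every parental array, where 40.5% of such genes were lower. Of these 9, 8 were lower and NECTIN4 did not pass. CDH1, which encodes E-cadherin, was at least 10.7-fold lower, and NECTIN1, a partner of afadin, at least 18.4-fold. After centring on every-cell genes their log2 differences were -3.17 and -2.56, smaller falls than these bounds. CTNNB1, which encodes β-catenin, was above background in 1 clone and had a log2 difference of -3.87, and CDH3, which encodes P-cadherin, had -3.56. Under that centring 5 of the 9 were lower and NECTIN4 (2.37) was higher. The median was -2.93 for these genes and -2.85 for the keratins, beside -3.31 for the desmosome genes. Differences between lists were not tested.

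Of 10 measured transcription factors of epithelial differentiation 7 were lower. All 10 were above background in every parental array, where 40.5% of such genes were lower. KLF5, a zinc finger factor of proliferating epithelia (-3.88), and GRHL3, a Grainyhead-like factor of the epidermal barrier, were lower under all 5 scalings. GRHL3 was under background in all clones and at least 6.12-fold lower as deposited, with a log2 difference of -1.38 after centring on every-cell genes. GRHL2, which maintains junction genes (-2.28), OVOL1 (-1.90), ELF3 (-1.55), and GRHL1 and ZNF750, both with all clones under background, were not lower after centring on every-cell genes, which also turned the median of the list from -1.50 to 0.32. KLF4, a factor of the epidermal barrier, was higher by 2.17 and was called higher under all 5 scalings. OVOL2 (0.33) and TFAP2A (-0.30) did not pass. Both were called higher on every-cell genes (2.16 and 1.53), and TFAP2A lower on antigenomic controls (-1.28). Of 5 EMT transcription factors, ZEB2 (5.50), TWIST1 (2.84) and ZEB1 (2.76) were higher under all 5 scalings, although ZEB1 was above background in 1 clone and in no parental sample. As deposited, 36.2% of all genes were higher. SNAI2 (-1.48) was lower, but not after a repeated quantile normalization (-0.37) or centring on every-cell genes (0.34), and SNAI1 (0.95) did not pass except on every-cell genes, where it was higher (2.78).

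Of 6 genes of desmosome cleavage 3 were lower and 1 was higher, beside 26.8% and 36.2% of all genes. ADAM17, a sheddase that cleaves desmogleins, was at least 6.76-fold lower, with a log2 difference of -1.65 after centring on every-cell genes, a smaller fall than that bound. ADAM9 (at least 2.39-fold) and ADAM15 (-1.45) were lower too, though not after centring on every-cell genes (-0.19 and 0.38). KLK5, a serine protease that opens desmosomes as corneocytes are shed, was higher by 1.16, but not after a repeated quantile normalization (0.88) or on antigenomic (0.18) or hybridization controls (0.32). ADAM10 (-0.03, 95% interval -0.49 to 0.43) and KLK7 (-0.85) did not pass. ADAM10 was called higher on every-cell genes (1.80) and lower on antigenomic controls (-1.01), and KLK7 lower on antigenomic (-1.83) and hybridization controls (-1.69). Of 8 genes of desmosome assembly 3 were lower and 2 were higher. At 37.5% lower this is near the 40.5% among genes above background in all parental arrays, as all 8 were. PRKCA, a kinase that makes desmosomes depend on calcium (2.20), and FLOT2, a flotillin (2.30), were higher under all 5 scalings. RHOA, a GTPase of the actin cytoskeleton (-4.07), was lower under all of them. ATP2A2, the calcium pump mutated in Darier disease (-2.24), and ERBIN (-1.12) were lower, but not after centring on every-cell genes (-0.42 and 0.71), and ERBIN not after a repeated quantile normalization either (-0.79). The medians of the cleavage (-1.15), assembly (-0.82) and plakin lists (-1.26) turned positive after centring on every-cell genes.

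**Figure D4:**
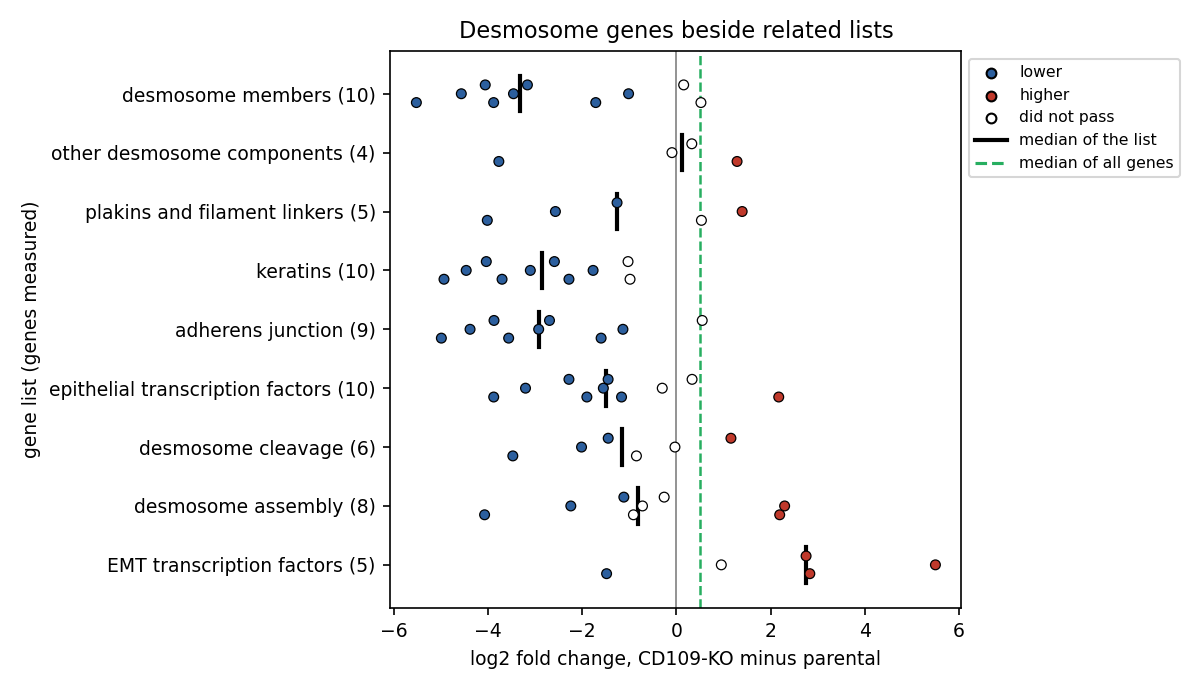
Log2 difference (horizontal axis, CD109-KO minus parental) of every measured gene in the desmosome list and 8 related lists, with list medians and the median of all genes, 0.51. The median was -3.31 for desmosome genes, -2.85 for keratins, -2.93 for adherens junction genes and 2.76 for EMT transcription factors, and the medians of plakins, epithelial transcription factors, cleavage and assembly genes, all below 0 here, turn positive after centring on every-cell genes.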

How the data were processed

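RNA from 3 clones with CD109-KO and from 3 parental samples was hybridized to 6 Clariom S human arrays, grouped by sample title. The deposited values are log2 signals that the authors had background-corrected and normalized with Gene Expression Console, and hg38 is named in the processing notes of the submitters. Which normalization algorithm was used is not given in the sources. No further scaling was applied. After 2903 control probe sets of 24351 were set aside, limma 3.58.1 (R 4.3.3; lmFit, eBayes) was fitted to 21448 gene probe sets and p was adjusted over all of them by Benjamini-Hochberg. The thresholds of the call (adjusted p 0.01, fold change 2) are those of the study, but the fit is not. The study used Transcriptome Analysis Console and reported far fewer genes, most of them down-regulated, whereas here 6410 were higher and 4746 lower. Symbols came from the platform annotation, matched by Entrez ID to GRCh38.p14, with 17709 probe sets named and 3739 unnamed here. Where a gene had several probe sets (20 genes), the brightest was used. The fit was tested on simulated data with normal noise and no array-wide shift. That test does not bear on the differences between these arrays in background and spread.

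The study describes its microarray replicates as biological, with technical repeats, while no label ties the parental numbers to separate cultures. The p-values cover only the spread between these samples, which may in part be technical, and precision is limited by the number of arrays. The desmosome genes and all gene lists were chosen with earlier results of these data known. All desmosome genes and CD109 are named, with up to 4 called genes of each other list by size of change and further members of the component, plakin and transcription factor lists. ERBIN, CTNNA1, VCL, TRAPPC8 and the other neighbours of the cadherin cluster were named once their values had been seen. So were list members that did not pass and some cell type markers. Alternatives were the methods' t-test, a robust prior with a trend, 4 other scalings, a filter that kept probe sets above background in at least 3 arrays, other thresholds, another choice of probe set, and each array left out.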

Additional observations from a re-analysis of the deposited data

How the results depend on the processing

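The falls of DSG2, DSG3, DSC2, DSC3, DSP and PERP passed under all 16 alternatives, and 6 to 8 of the desmosome genes were lower under each. Not every alternative could have changed these calls. Each desmosome gene had 1 probe set, so another choice of probe set altered nothing for them, and an adjusted p of 0.05 only loosens the call. DSG2, DSG3 and DSC2 entered the filter on dim probe sets only through their parental arrays. None was higher, except 2 (DSG1 and PKP3) after centring on every-cell genes. Centring subtracted from each difference the change of the reference, which was -1.83 for 36 every-cell genes, 0.98 for antigenomic and 0.84 for hybridization controls, and a repeated quantile normalization moved the median of all genes from 0.51 to 0.31. DSG1 changed sign after the quantile normalization (-0.30) and on antigenomic (-0.82) or hybridization controls (-0.68), PKP3 on antigenomic (-0.46) or hybridization controls (-0.32), and PKP1 (0.81) and PKP2 (0.11) on every-cell genes. PKP1 also did not pass after the quantile normalization (-0.40), and neither PKP1 (adjusted p = 0.0312) nor PKP2 (adjusted p = 0.0113) passed either the methods' t-test after adjustment by Benjamini-Hochberg or a fold change of 4. Over all genes, 6410 were higher and 4746 lower (42.5% of calls). Centring on every-cell genes gave 12405 higher and 1684 lower, antigenomic controls 1117 higher (85.9% of calls lower), hybridization controls 1360 higher (81.7% lower), the filter on dim probe sets 3704 higher (55.4% lower), a fold change of 4 gave 1127 higher and 2978 lower (72.5% lower), and the methods' t-test 3140 lower. Without each array in turn, 5906 to 6606 genes were higher, 4377 to 4910 lower, and 7 to 8 desmosome genes lower. The cause of these shifts was not tested. No paired analysis was possible because clone and parental numbers have none in common. Signals under background, as for DSG2, DSG3 and DSC2 in the clones, limit a fall to a bound.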
